A study of Mus musculus with 12 samples.

Results

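The miR-29 family was followed in livers of mice with carbon tetrachloride (CCl4) injury, through all 7 mature arms of miR-29a, miR-29b and miR-29c in a table of 1929 mouse miRNAs. The members were chosen by name, with earlier results of these data known. They are the 3p arms mmu-miR-29a-3p, mmu-miR-29b-3p and mmu-miR-29c-3p and the 5p arms mmu-miR-29a-5p, mmu-miR-29b-1-5p, mmu-miR-29b-2-5p and mmu-miR-29c-5p, written from here on without the species prefix. Small RNA of 12 livers was sequenced, 1 library per liver. The PZH group (6 libraries, replicates 1 to 6) came from C57BL/6 mice that were given Pien Tze Huang (PZH), a compound remedy of Chinese medicine, intragastrically once a day. The water group (6 libraries, replicates 1 to 6) came from C57BL/6 mice that were given double distilled water in the same way. CCl4, a hepatotoxin used to produce hepatic fibrosis, was injected intraperitoneally in both groups, so both groups carry the injury and no healthy liver was analysed here. The labels give no age, sex, dose of PZH or number of weeks, and nothing says that same-numbered mice were paired.

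MiRNAs are short RNAs that guide Argonaute proteins to messenger RNAs, mainly by pairing of the seed, bases 2 to 8 of the miRNA, with the 3′ untranslated region (UTR). The miR-29 family is known for targeting messages of collagens and other matrix proteins. In liver, its levels have been reported to fall in activated stellate cells, the main source of scar collagen, and transforming growth factor β is known to lower them. Each precursor hairpin is cut into a 5p and a 3p arm. In this family the 3p arm is the guide that is mostly kept, and the 5p arm is the passenger.

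The mature sequences show what the members share and where they part. They are given 5′ to 3′ from RefSeq on GRCm38.p6, with the seed in capitals, and all 7 names were matched.
miR-29a-3p: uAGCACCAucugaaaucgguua
miR-29b-3p: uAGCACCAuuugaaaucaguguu
miR-29c-3p: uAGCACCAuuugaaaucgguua
miR-29a-5p: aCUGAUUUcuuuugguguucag
miR-29b-1-5p: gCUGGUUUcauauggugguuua
miR-29b-2-5p: cUGGUUUCacaugguggcuuagauu
miR-29c-5p: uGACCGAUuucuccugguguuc
The 3p arms share 1 seed, while each 5p arm has a seed of its own. Counted from 1 at the 5′ end, miR-29a-3p differs from miR-29c-3p at a single position, C10U. MiR-29b-3p differs from miR-29c-3p at 3 positions, A18G, G21U and U22A, and is 1 base longer, at 23 nt. The sources used here do not say how reads that match more than 1 miRNA were counted, so the counts of near-identical 3p arms may share reads. The miR-29b hairpins give the same 3p sequence, so miR-29b-3p cannot be assigned to either. Among 1679 mature names in the RefSeq table, those 3 arms alone carried this seed at bases 2 to 8.

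The members come from 2 pairs of hairpins. On chromosome 6, on the minus strand, Mir29a lies at chr6:31062660-31062747 and Mir29b-1 at chr6:31063023-31063093 (GRCm38), 275 bases apart. Apart from 2 bases of Mir29b-1 that overlap the non-coding gene Gm27019, neither overlaps another annotated gene. On chromosome 1, on the plus strand, Mir29b-2 lies at chr1:195037040-195037120 and Mir29c at chr1:195037547-195037634, 426 bases apart. Both lie in an exon of 1 transcript of the non-coding gene A330023F24Rik on the same strand, and in an exon of 1 transcript of Cd46, a membrane complement regulator, on the opposite strand. The hairpins of the most abundant member and of the one with the largest relative fall are shown with both mature arms in capitals.
Mir29a: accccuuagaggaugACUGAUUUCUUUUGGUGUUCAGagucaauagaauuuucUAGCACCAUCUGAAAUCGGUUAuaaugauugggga
Mir29c: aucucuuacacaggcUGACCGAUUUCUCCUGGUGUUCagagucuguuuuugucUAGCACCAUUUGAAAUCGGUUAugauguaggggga

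The label of the family, repressors of collagen, was set against collagen messages as annotated, since no messenger RNA was measured. The match to the shared seed is TGGTGCT in DNA letters (7-mer), or TGGTGCTA with the A that faces the first base (8-mer). It was sought on the sense strand of the annotated 3′ UTR, taking the longest UTR of each gene (GENCODE M21, GRCm38). Of 44 collagen genes, 25 (56.8%) held at least 1 match, against 2754 (13.2%) of 20832 genes. Among UTRs of 785 to 1763 bases, the middle range of the collagen UTRs, the shares were 60.9% of 23 collagen genes and 11.03% of 5494 other genes. At least 1 match of the 8-mer stood in 36.4% of the collagen genes and in 2.88% of all genes. These are descriptions of sequence and were not tested. Sites of fibrillar and basement membrane collagens are shown with the 15 bases before the match and the match in capitals.
Col1a1: gtgggaaggaatttcTGGTGCTA
Col3a1: ttcaaaatgtctcaaTGGTGCTA
Col5a2: cttttcttttaatgaTGGTGCTA
Col4a1: gccaccgtcacaacaTGGTGCTA
The site of Col1a1, a chain of type I collagen, lies at chr11:94952523-94952545 on the plus strand. That of Col3a1, the chain of type III collagen, lies at chr1:45348967-45348989 on the plus strand. The sites of Col5a2, a minor fibrillar chain, and Col4a1, a basement membrane chain, lie on the minus strand at chr1:45374965-45374987 and chr8:11199761-11199783. The UTR taken for Col1a2, the partner chain of Col1a1, held no match, which says only that these letters are not in that window.

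All 7 members passed the filter on low counts, as did 607 of the 1929 miRNAs, and no member had a count of 0 in any library. Total counts per library lay between 6065480 and 10436478 in the PZH group and between 4961913 and 20211784 in the water group. Levels are CPM, counts scaled to a common library total, after TMM scaling, which takes most miRNAs as not differing. Calls were made with the quasi-likelihood test of edgeR at a Benjamini-Hochberg adjusted p under 0.05 over all 607 miRNAs. Of these, 129 (21.3%) were called, 69 (11.4%) lower and 60 (9.88%) higher with PZH. The hepatocyte miRNA miR-122-5p averaged 107900 CPM in the PZH group and 104140 CPM in the water group, so the marker of the labelled tissue was high in both. In whole liver, fewer cells of a type and less miRNA per cell cannot be told apart.

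Nearly all reads of the family in these livers were of miR-29a-3p. Averaged over 12 libraries, miR-29a-3p ranked 13th of 1929 miRNAs by level, with 62.1 times the CPM of miR-29c-3p, the next member. CPM are not scaled for length, and the arms are 22 to 25 nt long. The order was miR-29a-3p, miR-29c-3p, miR-29b-3p, miR-29c-5p, miR-29a-5p, miR-29b-2-5p and miR-29b-1-5p. The nearest neighbours in that order were miR-29c-3p and miR-29b-3p, at 1.245 times. In every library the count of miR-29c-3p was above that of miR-29b-3p, with 111 to 144 reads of miR-29c-3p per 100 of miR-29b-3p. The 3p arms summed to 19048 ± 1474 CPM in the PZH group and 22067 ± 844 CPM in the water group (SD, n = 6 each). Of this sum, miR-29a-3p held 97.3% ± 0.191 in the PZH group and 97.0% ± 0.210 in the water group. The 5p arms summed to 62.7 ± 6.70 CPM in the PZH group and 61.3 ± 2.80 CPM in the water group (SD, n = 6 each).

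With PZH, the 3 guide arms of the family were lower, by 13.4% to 24.1%, and none of the 4 passenger arms was called. In the whole-table fit 3 of 7 members were called lower, where 11.4% of all tested miRNAs were, and 0 higher, where 9.88% were. At an unadjusted edgeR p under 0.05, the same 3 members were lower, beside 103 (17%) of the 607. The 3 calls share a seed and may share reads, so they are not independent. The family was chosen with earlier results of these data known, so its count of calls is not independent evidence. Only the call of miR-29c-3p held in all 21 alternatives tried, while miR-29a-3p kept its call in 10 and miR-29b-3p in 9. Over all 607 miRNAs the median log2 fold change was -0.03.

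MiR-29c-3p, a guide arm from chromosome 1, had the largest fall of the members relative to its level. Its level ran from 231 to 318 CPM with a median of 279 in the PZH group, and from 324 to 408 CPM with a median of 362 in the water group. All 6 PZH livers lay below every water liver, although the highest PZH value, in replicate 4, was close to the lowest water value, in replicate 2. Groups separated in this direction for 30 (4.94%) of the 607 miRNAs. The means were 278 ± 30.6 CPM with PZH and 366 ± 28.7 CPM with water (SD, n = 6 each). The log2 fold change was -0.40 (SE 0.091, 95% interval -0.59 to -0.20, edgeR adjusted p = 0.00583), a level 0.759 times that with water. By p it ranked 56th of the 607. The call held under every alternative, with adjusted p between 0.000429 and 0.0497, the highest of them without a filter on low counts.

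MiR-29a-3p, the dominant guide arm, from chromosome 6, had the smallest fall of the 3 on the log2 scale. Its level ran from 15852 to 19848 CPM with a median of 18876 in the PZH group, and from 20539 to 22300 CPM with a median of 21423 in the water group. The groups did not overlap, and PZH replicate 1 was the lowest of the 12 libraries, with the next PZH library at 18236 CPM. The means were 18541 ± 1435 CPM with PZH and 21414 ± 799 CPM with water (SD, n = 6 each). The log2 fold change was -0.21 (SE 0.063, 95% interval -0.34 to -0.073, edgeR adjusted p = 0.0289), a level 0.866 times that with water. Its lowest count was 102980, so counting error was small beside the spread between mice.

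The call of miR-29a-3p depended on how libraries were scaled and filtered. With RLE scaling the log2 fold change was -0.17 (edgeR adjusted p = 0.0551), with total-count scaling -0.16 (0.0750), and without a filter on low counts -0.17 (0.347). With a filter of 10 CPM in 6 libraries it was -0.12 (edgeR adjusted p = 0.148), more than 1.5 times smaller than reported. With that filter the median log2 fold change over all tested miRNAs was 0.066, against -0.03 in the reported fit. The call also ended without any 1 of PZH replicates 1, 2 and 5 and water replicates 1, 4 and 6, at log2 fold changes of -0.20 to -0.17. DESeq2 called it (adjusted p = 0.0265), as did limma-voom (0.0264), and the direction was down in all 21 alternatives.

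MiR-29b-3p, the guide arm that both chromosomes encode, was lower with PZH as well, with groups that overlapped. Its level ran from 194 to 260 CPM with a median of 231 in the PZH group, and from 225 to 313 CPM with a median of 303 in the water group. All 6 PZH livers lay below the median of the water livers, and 3 lay below the lowest of them, water replicate 2. The means were 229 ± 26.6 CPM with PZH and 287 ± 34.6 CPM with water (SD, n = 6 each). The log2 fold change was -0.32 (SE 0.11, 95% interval -0.55 to -0.10, edgeR adjusted p = 0.0403), a level 0.799 times that with water. Without water replicate 2 it was -0.39 (edgeR adjusted p = 0.0105).

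The call of miR-29b-3p was the least stable of the 3. It ended without any 1 of PZH replicates 1, 2 and 5 and water replicates 1, 4, 5 and 6, at log2 fold changes of -0.31 to -0.28. It ended too with RLE scaling (edgeR adjusted p = 0.0607), with total-count scaling (0.0699), without a filter on low counts (0.184) and with a filter of 10 CPM in 6 libraries (0.0788). DESeq2 called it (adjusted p = 0.0350), and limma-voom did so just inside the threshold (adjusted p = 0.04995). The direction was down in all 21 alternatives.

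**Figure D1:**
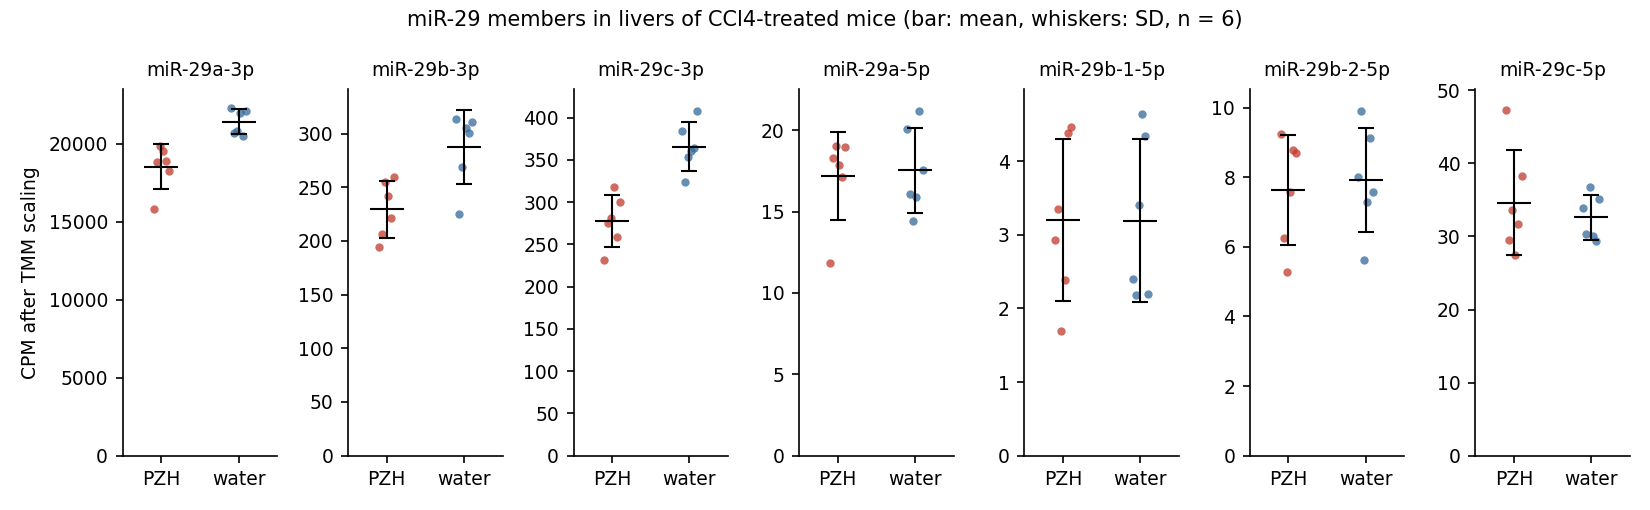
Level of each miR-29 member in each liver, in CPM after TMM scaling, with PZH left of water; points are libraries, bars are means and whiskers are SDs (n = 6 each). For miR-29a-3p and miR-29c-3p all 6 PZH livers lie below every water liver, while the 4 passenger arms on the right overlap between groups.

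Of the passenger arms, miR-29c-5p, which comes from the same hairpin as miR-29c-3p, had the highest level. It ran from 27.5 to 47.3 CPM with a median of 32.7 in the PZH group, and from 29.4 to 36.8 CPM with a median of 32.2 in the water group. The groups overlapped, and PZH replicate 1, the lowest library for all 3 guide arms, was the highest for this arm. The log2 fold change was 0.086 (95% interval -0.20 to 0.37, edgeR adjusted p = 0.776), and it was -0.02 without PZH replicate 1. The interval allows a level of 0.871 to 1.29 times that with water.

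MiR-29a-5p, the passenger of the dominant guide, ran from 11.9 to 19.0 CPM with a median of 18.1 in the PZH group. In the water group it ran from 14.4 to 21.2 CPM with a median of 16.8. PZH replicate 1 was again apart, here on the low side, and the other 5 PZH libraries lay within the range of the water libraries. The log2 fold change was -0.029 (95% interval -0.33 to 0.28, edgeR adjusted p = 0.925), and its sign turned under 8 of 21 alternatives, among them RLE scaling (0.0063).

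The passengers of the miR-29b hairpins tell the loci apart, since their sequences differ. MiR-29b-2-5p, from chromosome 1, ran from 5.28 to 9.24 CPM with a median of 8.14 in the PZH group and from 5.63 to 9.90 CPM with a median of 7.80 in the water group. Its log2 fold change was -0.067 (95% interval -0.46 to 0.32, edgeR adjusted p = 0.883). MiR-29b-1-5p, from chromosome 6, ran from 1.70 to 4.47 CPM with a median of 3.14 in the PZH group and from 2.19 to 4.64 CPM with a median of 2.90 in the water group. Its log2 fold change was -0.00085 (95% interval -0.61 to 0.61, edgeR adjusted p = 0.998). For both arms the groups overlapped over most of their range. The depth limits what these arms can show: the lowest count of miR-29b-1-5p was 11, in water replicate 6, with an exact Poisson 95% interval of 5.49 to 19.7 that covers counting error only. A fall of the size of miR-29c-3p, at -0.40, lay within the intervals of both miR-29b passengers and outside those of miR-29a-5p and miR-29c-5p. The smaller fall of miR-29a-3p, at -0.21, lay within the interval of its own passenger, miR-29a-5p, of -0.33 to 0.28.

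**Figure D2:**
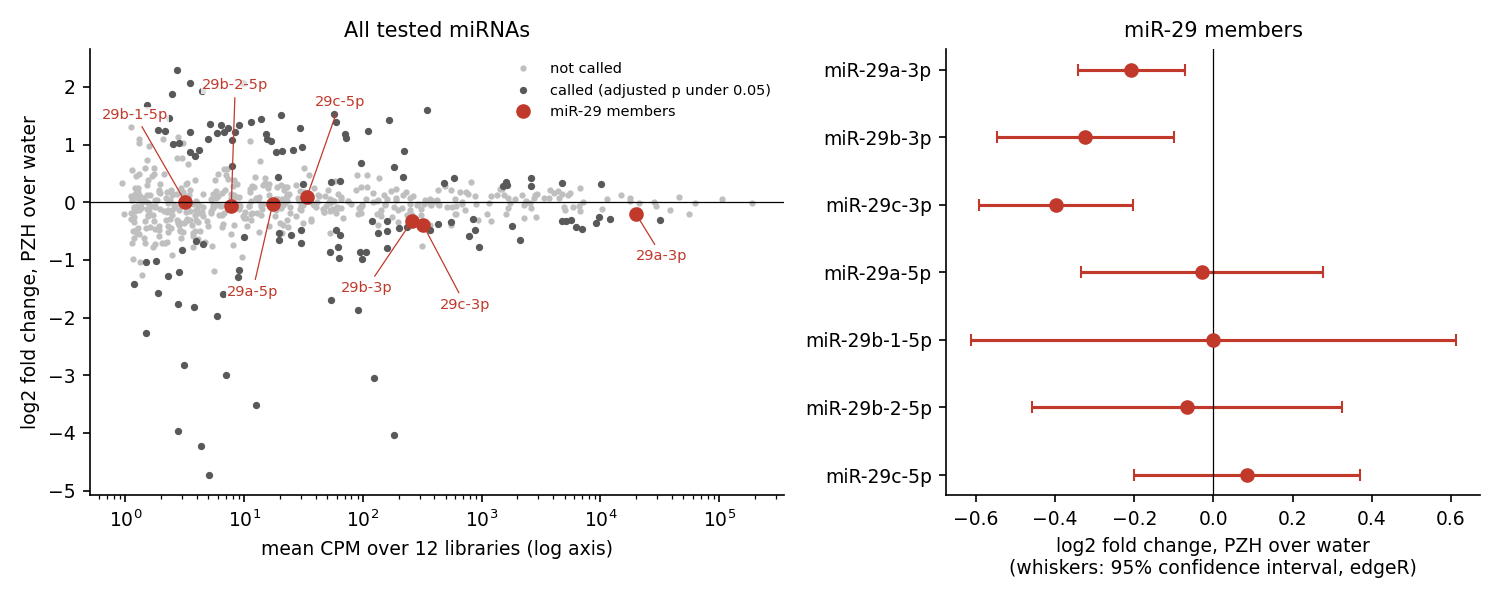
Left, log2 fold change of PZH over water against mean CPM (log axis) for all 607 tested miRNAs, with called miRNAs in dark grey and miR-29 members in red. Right, the log2 fold change of each member with its 95% interval; the 3 guide arms lie below 0, at -0.21, -0.32 and -0.40, and the intervals of the 4 passengers span 0.

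Whether the guide arms fell by different amounts was tested within libraries, as the ratio of their counts, which needs no scaling between libraries. There were 1.497 ± 0.114 reads of miR-29c-3p per 100 of miR-29a-3p in the PZH group, and 1.71 ± 0.0992 in the water group (SD, n = 6 each). The ratio ran from 1.37 to 1.65 with PZH and from 1.56 to 1.85 with water, with 4 of 6 PZH livers below every water liver. The log2 difference was -0.19 (SE 0.056; two-sided exact permutation p = 0.0130, adjusted over 3 pairs 0.0390). In this test miR-29c-3p fell more than miR-29a-3p, from which it differs by 1 base. The difference missed the threshold without PZH replicate 1, 2, 3 or 5 and without water replicate 1, 3, 5 or 6 (differences of -0.19 to -0.17, adjusted p of 0.0584 to 0.0714).

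For the other pairs no difference was called. There were 1.24 ± 0.111 reads of miR-29b-3p per 100 of miR-29a-3p in the PZH group and 1.34 ± 0.137 in the water group (SD, n = 6 each). The log2 difference was -0.11 (SE 0.083; exact permutation p = 0.208, adjusted over 3 pairs 0.216). Water replicate 2 held the lowest ratio of the water group, 1.09, and without it the log2 difference was -0.17 (exact permutation p adjusted over 3 pairs = 0.0422). Reads of miR-29c-3p per 100 of miR-29b-3p numbered 121 ± 9.22 in the PZH group and 128 ± 9.52 in the water group (SD, n = 6 each). Here the log2 difference was -0.079 (SE 0.062; exact permutation p = 0.216, adjusted over 3 pairs 0.216).

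Whether guide and passenger of 1 hairpin changed by different amounts was tested as the ratio of 5p to 3p reads of each hairpin, with limma over 139 hairpins that had at least 20 counts per arm on average. No miR-29 hairpin was called, where 11 (7.91%) of the 139 ratios were, 8 (5.76%) of them higher with PZH. The closest was miR-29c, with 12.8 ± 4.02 reads of the 5p arm per 100 of the 3p arm in the PZH group and 8.94 ± 0.838 in the water group (SD, n = 6 each). Its ratio ran from 8.65 to 20.4 with PZH and from 8.10 to 10.4 with water. PZH replicate 1 stood at 20.4, above 12.8 in the next library, and PZH replicate 4, at 8.65, lay inside the range of the water livers. The log2 difference was 0.47 (SE 0.17, limma adjusted p = 0.103 over all 139 ratios), and 0.32 without PZH replicate 1 (limma adjusted p = 0.141). Over all 139 ratios the median log2 difference was 0.069.

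The other hairpins had smaller or noisier shifts in the same direction. For miR-29a there were 0.0923 ± 0.00981 reads of the 5p arm per 100 of the 3p arm in the PZH group and 0.0820 ± 0.0126 in the water group (SD, n = 6 each; log2 difference 0.18, limma adjusted p = 0.354). Against the shared miR-29b-3p, the 5p arm of miR-29b-2 gave 3.39 ± 0.911 with PZH and 2.82 ± 0.836 with water (SD, n = 6 each; log2 difference 0.27, limma adjusted p = 0.442). The 5p arm of miR-29b-1 gave 1.42 ± 0.493 with PZH and 1.11 ± 0.348 with water (SD, n = 6 each; log2 difference 0.32, limma adjusted p = 0.477). The miR-29b ratios share their 3p counts. The hairpins thus differed widely in passenger reads per 100 guide reads, from under 0.1 for miR-29a to about 9 for miR-29c in the water group.

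**Figure D3:**
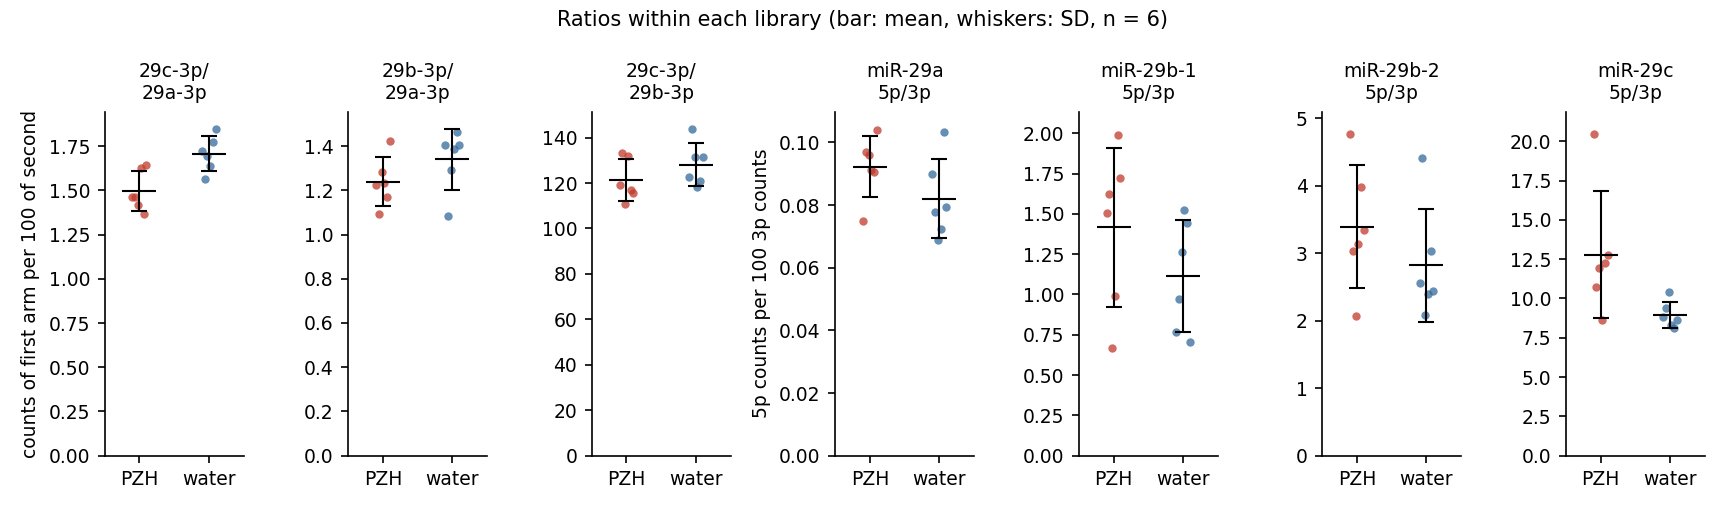
Ratios within each library, PZH left of water: on the left, counts of one guide arm per 100 of another, and on the right, 5p counts per 100 3p counts of each hairpin. Points are libraries, bars means and whiskers SDs (n = 6 each); miR-29c-3p per 100 miR-29a-3p is 1.497 with PZH and 1.71 with water, and PZH replicate 1 stands alone at 20.4 for miR-29c.

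The miRNAs whose profile over the 12 livers was nearest to each guide arm were sought among 171 others with a mean of at least 100 CPM. Likeness was the root mean square difference of log2 CPM after each miRNA was centred on its own mean, and it is a description with no test. That mean was taken over all 12 libraries, so the difference between PZH and water is part of the profile. Near miRNAs therefore have like fold changes by construction. For miR-29c-3p the nearest was miR-126a-3p, the endothelial miRNA of the Egfl7 gene, at 0.0795, followed by miR-1843a-5p at 0.102 and miR-101b-3p at 0.106. For miR-29b-3p the nearest were miR-126a-5p at 0.0776, miR-126a-3p at 0.0786 and miR-122b-5p at 0.114. For miR-29a-3p they were miR-101b-3p, on the list of hepatocyte markers used below, at 0.0789, miR-30b-5p, at 0.0812, and miR-362-3p, at 0.0923. Between the guide arms themselves, which were not among the 171, the difference was 0.105 for miR-29b-3p and miR-29c-3p, nearer than the third miRNA named for either. It was 0.130 for miR-29a-3p and miR-29c-3p and 0.142 for miR-29a-3p and miR-29b-3p, farther than any of the 3 named for miR-29a-3p. The median over the 171 miRNAs was 0.237 from miR-29a-3p and 0.283 from miR-29c-3p. MiR-126a-3p averaged 7974 CPM with PZH and 10223 CPM with water (log2 fold change -0.36, edgeR adjusted p = 0.00281). MiR-101b-3p averaged 8813 CPM with PZH and 10542 CPM with water (log2 fold change -0.26, edgeR adjusted p = 0.0159).

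Lists of cell type markers were read beside the family, and their part in the result was not tested. Their calls stand beside 11.4% lower and 9.88% higher over all 607 tested miRNAs, and most lists are too short to set against those shares. Both endothelial markers, the arms of miR-126a, fell, and their sum ran from 10270 to 13900 CPM with PZH and from 12860 to 17100 CPM with water. Of 7 mesenchymal markers, which include those of stellate cells and smooth muscle, 0 were called by edgeR, and their sum ran from 55490 to 95360 CPM with PZH and from 66010 to 95120 CPM with water. Of 8 hepatocyte markers 3 fell, with a summed level of 211200 to 273800 CPM with PZH and 231000 to 266800 CPM with water. Of 7 leukocyte markers 1 rose and 1 fell, with sums of 5991 to 8827 CPM with PZH and 6606 to 8592 CPM with water. Of 5 biliary and epithelial markers 2 fell, with sums of 864 to 1246 CPM with PZH and 931 to 2192 CPM with water. None of the 4 erythroid markers in the table was called, and their sums ran from 3237 to 5502 CPM with PZH and from 3661 to 5759 CPM with water. Markers of neural tissue, of muscle and of pancreas, each list taken alone, summed to under 100 CPM in every library. MiR-124-3p, miR-206-3p, miR-216a-5p and miR-217-5p were too low to be tested, and none of the markers was at 0 in all libraries. Of those tested, 0 of 3 neural and 0 of 2 muscle markers were called by edgeR. The 1 tested pancreas marker, miR-375-3p, named after its values were seen, fell, with a mean of 2.42 CPM with PZH and 9.44 CPM with water and groups that overlapped (log2 fold change -1.97, edgeR adjusted p = 0.00769).

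Other miRNAs linked to restraint of fibrosis fell beside the miR-29 guides, 7 of 21 tested with 0 higher, where 11.4% of all tested miRNAs were called lower and 9.88% higher, at a median log2 fold change of -0.15 against -0.03 over all tested miRNAs. Of that list 6 of 21 are also markers on a cell type list, and of the list for promotion of fibrosis 6 of 20. Earlier results of these data were known when the list was drawn, so its direction is not independent evidence. The members with the smallest p were miR-335-5p (log2 fold change -0.77), miR-378a-3p (-0.33), miR-30a-5p (-0.31), which targets connective tissue growth factor, and miR-146a-5p (-0.47), a brake on inflammatory signalling. Their edgeR adjusted p lay between 0.00306 and 0.0130. Of 19 tested miRNAs linked to promotion of fibrosis 2 rose and 2 fell, with a median of 0.033, and these counts are near the 9.88% higher and 11.4% lower of all tested miRNAs. Those that rose were miR-17-5p (log2 fold change 0.42, edgeR adjusted p = 0.00231) and miR-221-3p (0.34, adjusted p = 0.0172). Those that fell were miR-503-5p (-0.85, edgeR adjusted p = 1.42e-05) and miR-21a-3p (-0.80, adjusted p = 0.00281). MiR-21a-5p, the far more abundant arm of miR-21a and on the same list, was not called (-0.015, edgeR adjusted p = 0.923). The log2 fold change of miR-29c-3p, at -0.40, lay between those of miR-146a-5p and miR-378a-3p.

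**Figure D4:**
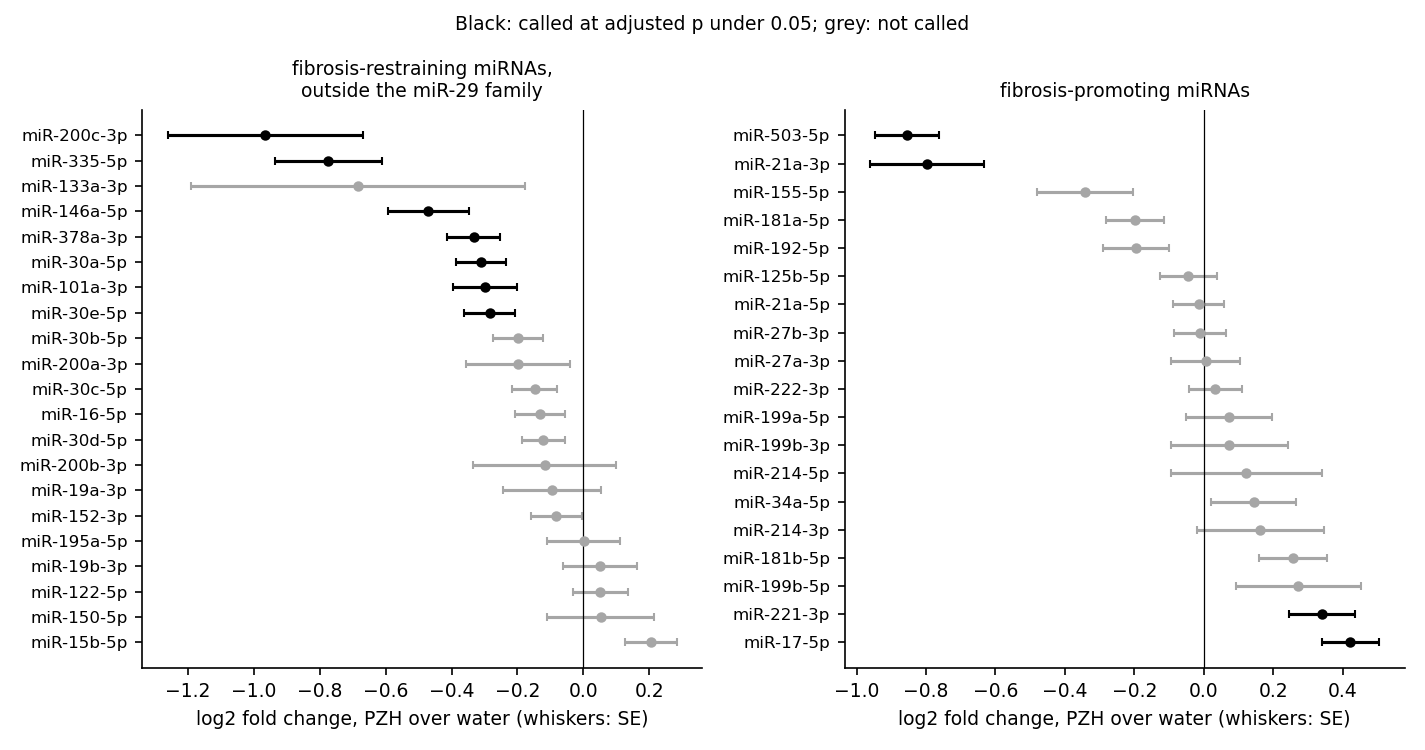
Log2 fold change of PZH over water for the miRNAs linked to restraint of fibrosis, without the miR-29 family (left), and to its promotion (right); points are miRNAs, whiskers are SEs, and called miRNAs are black. On the left 7 of 21 were called, all below 0, and on the right 2 of 19 were called above and 2 below.

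**Figure D5:**
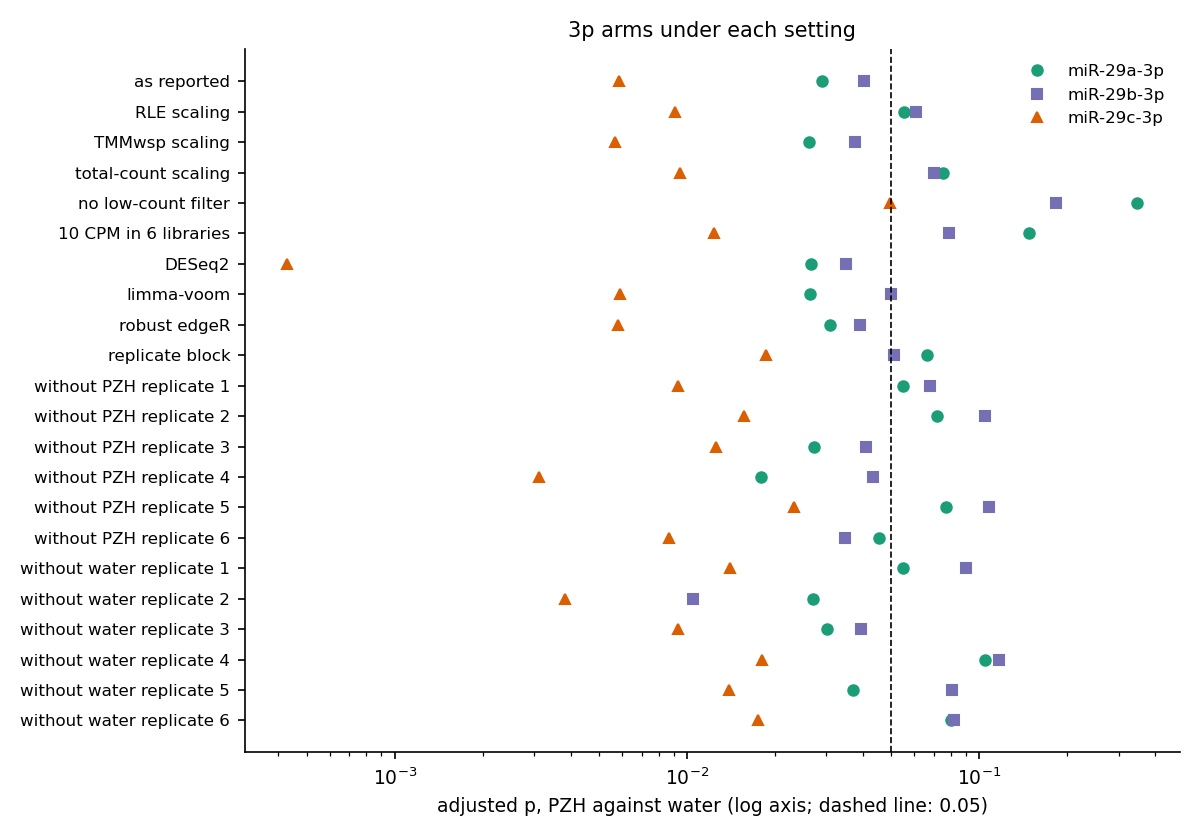
Adjusted p of the 3 guide arms in the reported fit and under 21 alternatives (log axis, dashed line at 0.05). MiR-29c-3p lies left of the line throughout, from 0.000429 to 0.0497, while miR-29a-3p and miR-29b-3p cross it.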

How the data were processed

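Small RNA libraries (Trizol, TruSeq small RNA kit, per the labels' protocols) of 12 mouse livers, 6 PZH and 6 water, were used, none pooled. The deposited table holds raw counts per mature miRNA with no normalization; it has no count of 1, so 2 is the smallest count above 0. The submitters' processing notes name cutadapt, FastQC, BWA, DESeq2 and GRCm38. For the counting tool, the miRNA release, strand and multiply matching reads, the method is not given in the sources used here. No source names molecular identifiers, so counting intervals cover counting error only.

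Counts were fitted over the whole table with edgeR 4.0.16 (TMM, default filter, quasi-likelihood test) in R 4.3.3; SEs come from its test statistic. Arm ratios were fitted with limma 3.58.1 on log2 ratios (pseudocount 1), and ratios of guide arms were compared by two-sided exact permutation over 924 assignments of libraries. All named comparisons set PZH over water. The edgeR and limma fits were run on simulated data. Their recovery of changes as small as those of the miR-29 guides is not given here. The fit was repeated with other scalings (total-count, TMMwsp, RLE), other filters, DESeq2 1.42.0, limma-voom, robust edgeR, each library left out and a replicate block. Positions and sequences come from RefSeq (GRCm38.p6) and GENCODE M21.

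Named miRNAs are the 7 members, the 3 nearest others of each guide arm (at least 100 CPM) and up to 4 members of smallest p of 2 fibrosis lists. MiR-21a-5p is named beside its other arm. Marker lists cover 9 cell types or tissues. Members and lists were chosen with earlier results of these data known. MiR-199a-3p and miR-486a-5p, on the lists, were not matched in the table by name. P-values set the difference between the groups against the spread between these libraries.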

Additional observations from a re-analysis of the deposited data

Results flagged for a closer look

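PZH replicate 1 stood far from the other 5 PZH libraries for 2 values. Its miR-29a-5p level was 11.9 CPM (11.85), against 17.1 CPM in the next lowest PZH library. It held 20.4 reads of miR-29c-5p per 100 of miR-29c-3p, against 12.8 in the next highest. Of 28 groups of 6 libraries looked at, these 2 were marked, and chance marks about 1 in 20.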

How the results depend on the processing

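The count of members called lower, 3 as reported, was 1 with RLE scaling, total-count scaling, no low-count filter, a filter of 10 CPM in 6 libraries and the replicate block, and 1 to 3 with each library left out; it was 3 with TMMwsp, DESeq2, limma-voom and robust edgeR. The count over all miRNAs, 129, lay between 94 and 144 over other settings and between 99 and 139 with a library left out. Without a filter the median log2 fold change of all miRNAs was -0.16, and with a filter of 10 CPM in 6 libraries it was 0.066. Of the passenger arms, none of them called, miR-29a-5p changed sign in 8 of 21 alternatives, miR-29b-1-5p in 12 of 20, miR-29b-2-5p in 3 of 20 and miR-29c-5p in 1 of 21. MiR-29a-5p was at 0.0063 with RLE, 0.0066 with total-count scaling, 0.0049 without a filter, 0.056 with 10 CPM and 0.0078 with DESeq2, and between -0.091 and 0.053 with a library left out. MiR-29b-1-5p was at 0.034 with RLE, 0.0039 with TMMwsp, 0.042 with total-count scaling, 0.025 without a filter, 0.035 with DESeq2 and 0.0094 with limma-voom, and between -0.12 and 0.16 with a library left out. With a library left out, miR-29b-2-5p lay between -0.15 and 0.030 and miR-29c-5p between -0.024 and 0.15. The cause was not tested.

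Of 3 ratios between guide arms 1 was called, and 0 to 2 were with a library left out. With the replicate block 0 were called (miR-29c-3p to miR-29a-3p, exact sign-flip p adjusted over 3 pairs = 0.0938). In all 6 same-numbered pairs this ratio was lower with PZH, so its unadjusted p was the smallest that sign flips of 6 pairs allow. Even that p cannot be called for 1 ratio alone after adjustment over 3 pairs, so the block test cannot decide here. Of 139 arm ratios 11 were called, 6 with the replicate block and 3 to 14 with a library left out. No label says that replicate numbers pair the mice. Same-numbered libraries correlated at -0.147 to 0.0799 after centring on group means, and 1 of 6 water libraries correlated best with its own number. These values cannot decide whether mice were paired, since a pairing may leave little trace in the counts. With the block the adjusted p of the edgeR test was 0.0660 for miR-29a-3p, 0.0510 for miR-29b-3p and 0.0186 for miR-29c-3p. With a filter of 10 CPM in 6 libraries, miR-29b-1-5p and miR-29b-2-5p were not tested.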
